A study of Homo sapiens with 2 samples.

Results

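The genes described here are the Wnt ligands, their receptors and their secreted antagonists in U87MG, a human glioblastoma line long kept in culture. Members were the protein_coding rows of the deposited gene table whose symbol is WNT, FZD, DKK or SFRP followed by a number, together with LRP5, LRP6, WIF1, FRZB and AXIN2. This rule uses names alone and found 26 rows among 14376 protein_coding rows and 21445 rows in all. They divide into 10 ligands, 10 receptors and co-receptors, 5 antagonists and AXIN2. The series holds 1 mRNA library and 1 small RNA library of untreated U87MG cells, grown per the labels in MEM with 10% serum and 1% antibiotics, and it has no other cell type, treatment or normal brain tissue. Values of genes are FPKM, the number of sequenced fragments scaled by gene length and by library size. Which lengths were used for this scaling is unknown (the length column of the table names no unit and holds 380 for WNT5A and 1613 for LRP6), so every rank, ratio and sum between genes below rests on the authors' scaling as deposited. With 1 library there is no spread between replicates, no test was possible, and whether genes next to each other in the order below differ beyond experimental error is not known.

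Wnt proteins are secreted, lipid-modified ligands that bind frizzled receptors on the cell surface. In the beta-catenin branch the frizzled acts together with LRP5 or LRP6, a complex that otherwise destroys beta-catenin is held back, and beta-catenin enters the nucleus and switches on genes with TCF and LEF factors. Other branches use frizzleds with ROR or RYK receptors and act on cell shape, migration and calcium. Dickkopf proteins (DKK) block the LRP co-receptors, whereas secreted frizzled-related proteins (SFRP, FRZB) and WIF1 bind the Wnt proteins themselves. Wnt signalling is known in the brain for patterning and stem cell growth, and in glioma it has been studied for invasion and self-renewal.

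The cell line was checked against markers of several cell types. For comparison, 77.5% of all protein_coding rows were at 1 FPKM or more, and 72.2% of RefSeq coding genes had a row. All 6 mesenchymal and fibroblast markers were at 1 FPKM or more, from CHI3L1 at 24.3 FPKM to VIM at 2420 FPKM. Of 6 astrocyte markers 3 were, with GJA1 at 143 FPKM, while the defining filament gene GFAP was at 0.331 FPKM and S100B and AQP4 had no row. Of 4 neuronal markers 3 had a row, and SNAP25, at 16.3 FPKM, was the 1 to reach 1 FPKM. Of 3 oligodendrocyte, 3 endothelial and 3 immune markers, 0 of each reached it. The summed level of these last 3 lists was 0.371, 0.0675 and 0.347 FPKM. CDH5 and CD14 were the 1 listed member of the endothelial and of the immune list, and MOG, PECAM1, CLDN5, PTPRC and AIF1 had no row.

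Promoter sequences are shown for DKK1, whose window was the one among those read that held a motif of the TCF and LEF type, and for WNT5A and WNT5B, the ligands with the highest levels. Each is the 250 bases before a transcription start in RefSeq on GRCh38.p14, given 5′ to 3′ on the strand of the gene. In the DKK1 window (chr10:52314031-52314280, plus strand) capitals mark the TATA motif TATAAA and, before it, CTTTGAA followed by CTTTGTT. In the other windows capitals mark CpG dinucleotides.
DKK1: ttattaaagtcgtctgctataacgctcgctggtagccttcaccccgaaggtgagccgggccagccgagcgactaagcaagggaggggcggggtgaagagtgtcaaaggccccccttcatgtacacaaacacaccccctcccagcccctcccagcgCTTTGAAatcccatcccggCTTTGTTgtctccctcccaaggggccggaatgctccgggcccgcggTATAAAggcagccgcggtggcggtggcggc
WNT5A, window 1 (chr3:55481399-55481648, minus strand): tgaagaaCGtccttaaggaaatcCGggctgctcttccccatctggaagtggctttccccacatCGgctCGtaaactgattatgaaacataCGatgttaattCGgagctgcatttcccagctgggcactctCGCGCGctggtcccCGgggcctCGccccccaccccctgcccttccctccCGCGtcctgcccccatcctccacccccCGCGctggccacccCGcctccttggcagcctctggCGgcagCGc
WNT5A, window 2 (chr3:55487307-55487556, minus strand): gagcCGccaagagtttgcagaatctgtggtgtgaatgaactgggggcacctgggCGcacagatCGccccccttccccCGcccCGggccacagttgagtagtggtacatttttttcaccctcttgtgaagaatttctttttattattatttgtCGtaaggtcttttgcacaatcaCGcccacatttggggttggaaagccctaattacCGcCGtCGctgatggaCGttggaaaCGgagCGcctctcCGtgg
WNT5B, window 1 (chr12:1616806-1617055, plus strand): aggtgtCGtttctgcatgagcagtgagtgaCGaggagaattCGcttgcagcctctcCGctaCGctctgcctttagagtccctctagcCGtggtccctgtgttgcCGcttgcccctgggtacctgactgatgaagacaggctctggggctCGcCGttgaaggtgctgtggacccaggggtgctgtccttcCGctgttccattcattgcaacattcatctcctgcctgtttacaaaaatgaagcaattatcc
WNT5B, window 2 (chr12:1628981-1629230, plus strand): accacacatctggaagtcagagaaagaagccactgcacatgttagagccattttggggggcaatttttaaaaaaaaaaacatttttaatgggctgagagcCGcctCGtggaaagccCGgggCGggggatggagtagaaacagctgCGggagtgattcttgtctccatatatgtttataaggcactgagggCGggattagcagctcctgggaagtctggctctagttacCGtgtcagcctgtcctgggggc

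Many genes of the family had no row in the table. The same rule applied to the gene name table gives 42 coding genes, of which 26 (61.9%) had a row, beside 72.2% of 19153 RefSeq coding genes. Receptors were the most fully listed, with 8 of 10 frizzleds and both LRP5 and LRP6. Among the ligands 10 of 19 had a row, and among the antagonists 5 of 10. No row was found for WNT1, WNT2, WNT3A, WNT6, WNT7A, WNT8A, WNT8B, WNT9A, WNT9B, FZD9, FZD10, DKK2, DKK4, SFRP1, SFRP5 and WIF1. The table holds no value of 0, and a gene without a row is described only as having none.

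Of the 26 members, 17 were at 1 FPKM or more (65.4%), beside 77.5% of all protein_coding rows. At 10 FPKM or more there were 7 members (26.9%), beside 43.8% of protein_coding rows. The median over the members was 2.04 FPKM, and over all protein_coding rows it was 7.82 FPKM. Together the members summed to 238 FPKM, which is 0.0635% of the coding sum. The protein_coding rows themselves held 10.6% of the FPKM summed over all rows. On a per-million scale of the coding rows alone, 1 FPKM becomes 2.67. The limit of 1 FPKM fell between SFRP4, the lowest member above it at 1.40 FPKM, and WNT2B, the highest member below it at 0.851 FPKM.

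**Figure D1:**
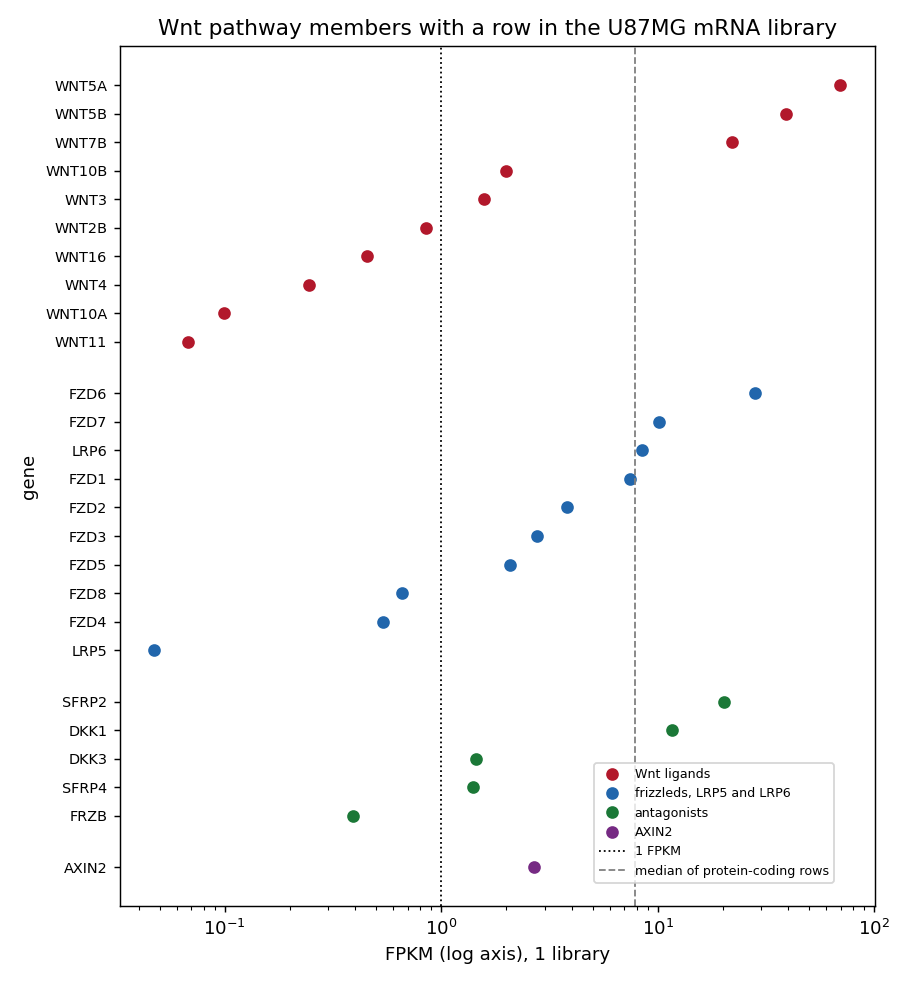
Level of each of the 26 members in the 1 mRNA library, as FPKM on a log axis, with the genes grouped by role and ordered by level within a role. The dotted line is 1 FPKM and the dashed line is the median of all protein-coding rows, 7.82 FPKM; 3 ligands, 3 receptors and 2 antagonists lie to the right of the dashed line.

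The ligands were led by WNT5A and WNT5B, which are best known for signalling without beta-catenin and for cell movement. WNT5A (ENSG00000114251) was at 69.8 FPKM, above 93.8% of protein_coding rows, and was the highest member of the family. WNT5B, its closest relative, was at 39.3 FPKM and above 87.5% of those rows. WNT7B, a ligand that usually acts through beta-catenin and is known in the brain for blood vessel formation, was at 22.0 FPKM and above 77.2%. These 3 genes held 96.1% of the summed level of all ligands, 136 FPKM.

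A gap followed, in which WNT7B was 11.1 times as high as WNT10B, the next ligand. WNT10B, known for bone and hair formation, was at 1.99 FPKM, and WNT3, known for setting up the body axis in the embryo, was at 1.58 FPKM. The remaining 5 ligands were under 1 FPKM. WNT2B was at 0.851 FPKM, WNT16 at 0.456 FPKM and WNT4, known for kidney and female reproductive tract development, at 0.246 FPKM. WNT10A, known for tooth and skin appendages, was at 0.0993 FPKM. WNT11, which like WNT5A acts mainly on cell movement, was lowest at 0.0676 FPKM and above 3.86% of protein_coding rows. WNT5A, WNT5B and WNT11, 3 ligands usually assigned to signalling without beta-catenin, summed to 109 FPKM. The other 7 ligands, which were not sorted by branch for this sum, reached 27.3 FPKM.

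Of the pairs of closely related ligands, 2 had a row for both genes. WNT5A was 1.78 times as high as WNT5B. WNT10B was 20.1 times as high as WNT10A. For the other pairs no distance in level can be given: WNT7B, WNT3 and WNT2B each had a row while WNT7A, WNT3A and WNT2 had none, and neither WNT8A, WNT8B, WNT9A nor WNT9B had a row. Several human Wnt genes lie side by side in the genome. In the RefSeq gene order no coding gene lies between WNT10B and WNT1, between WNT3 and WNT9B, or between WNT6 and WNT10A, and 1 lies between WNT9A and WNT3A. In each of the first 3 neighbour pairs 1 gene had a row and the other had none, and in the last pair neither had one.

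**Figure D2:**
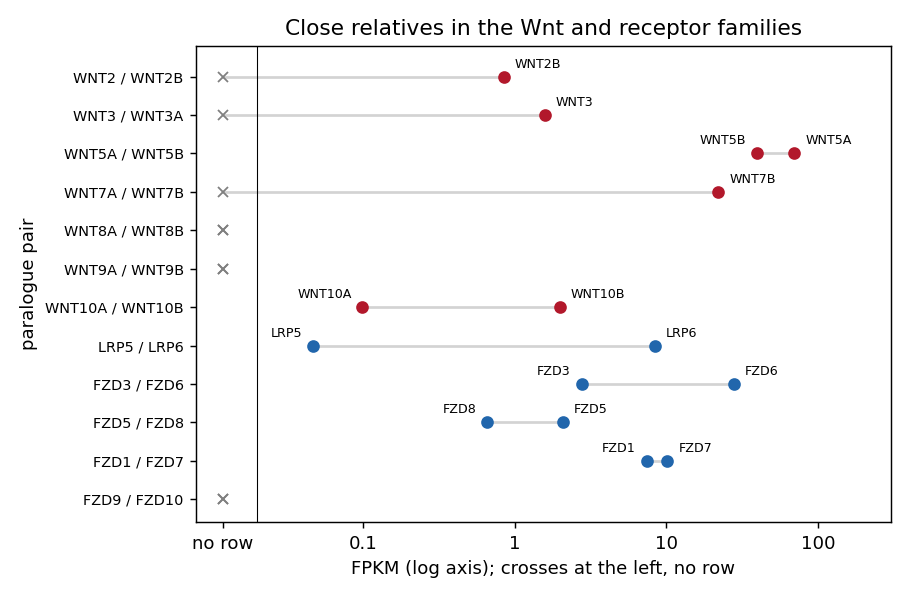
FPKM on a log axis for pairs of related genes, 1 pair per line, with a filled point for a gene that has a row and a grey cross at the left for a gene that has none. WNT5A with WNT5B and FZD1 with FZD7 lie close together, whereas LRP5 and LRP6 lie farthest apart among the pairs with rows for both genes.

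Frizzleds are cell-surface receptors that cross the membrane several times and bind Wnt proteins with a cysteine-rich domain. FZD6, which is known mainly for planar cell polarity and hair orientation, was highest at 28.0 FPKM, above 81.7% of protein_coding rows. It held 50.5% of the summed frizzled level of 55.5 FPKM and was 10.1 times as high as FZD3, the relative closest to it, at 2.77 FPKM. FZD7, known in stem cells and in several tumours, followed with 10.2 FPKM. FZD1 was at 7.42 FPKM and FZD2, reported as a receptor for WNT5A, at 3.80 FPKM. FZD1, FZD2 and FZD7, which form 1 subfamily, together reached 21.4 FPKM, or 38.6% of the frizzled sum.

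The remaining frizzleds were low. FZD5 was at 2.08 FPKM and its relative FZD8 at 0.662 FPKM, and together they held 4.95% of the frizzled sum. FZD4, the receptor for Norrin in retinal vessels, was at 0.536 FPKM. FZD9 and FZD10, of the same subfamily as FZD4, had no row. In all, 6 of the 8 listed frizzleds were at 1 FPKM or more, near the 77.5% of protein_coding rows, and the median over the 8 was 3.29 FPKM.

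The LRP co-receptors are single-pass proteins needed for the beta-catenin branch. LRP6 was at 8.47 FPKM, above 51.98% of protein_coding rows. LRP5 (ENSG00000162337) was at 0.0473 FPKM, the lowest of all 26 members, and LRP6 was 179 times as high. LRP5L, a gene that shares sequence with part of LRP5, was listed at 0.792 FPKM. How reads common to both genes were assigned is not given in the sources used here, so the level of LRP5 is uncertain.

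Among the antagonists SFRP2 and DKK1 were highest. SFRP2, a Wnt-binding protein abundant in fibroblasts, was at 20.2 FPKM and above 74.9% of protein_coding rows. DKK1, a blocker of LRP5 and LRP6 that is itself switched on by beta-catenin in many cells, was at 11.6 FPKM and above 60.2%. They held 90.8% of the antagonist sum of 35.0 FPKM. DKK3, a related protein whose standing as a Wnt antagonist is debated, was at 1.44 FPKM, and DKK1 was 8.03 times as high. SFRP4 was at 1.40 FPKM and FRZB, known from cartilage, at 0.393 FPKM. The Wnt-binding SFRP2, SFRP4 and FRZB summed to 22.0 FPKM, and the dickkopfs to 13.0 FPKM.

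Set side by side, ligands held the highest single levels and receptors the highest median. By median, receptors were at 3.29 FPKM, antagonists at 1.44 FPKM and ligands at 1.22 FPKM, all under the 7.82 FPKM of protein_coding rows. These medians cover genes with a row; with the missing rows of the family counted as 0 they were 2.43 FPKM for receptors, 0.196 FPKM for antagonists and 0.0676 FPKM for ligands. At 1 FPKM or more were 4 of 5 antagonists (80.0%), 7 of 10 receptors (70.0%) and 5 of 10 ligands, beside 77.5% of protein_coding rows. The mean of log2(FPKM + 1) was 2.22 for antagonists, 2.19 for receptors and 2.09 for ligands, and 3.04 for protein_coding rows. The sum of the antagonists was 0.257 times that of the ligands. Levels within a group spanned a factor of 1033 among ligands, 592 among receptors and 51.5 among antagonists. Genes are not replicates, so these figures describe the groups and were not tested.

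**Figure D3:**
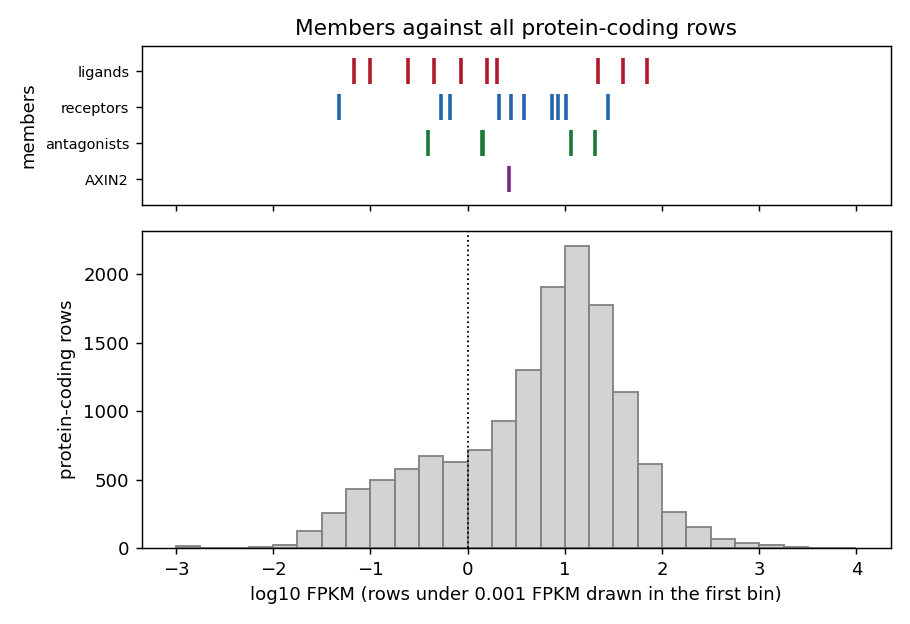
Upper panel, the members as ticks by role; lower panel, the number of protein-coding rows per bin; both on log10 FPKM, with the dotted line at 1 FPKM. The ligands split into 3 ticks at the right, from 22.0 to 69.8 FPKM, and 7 ticks at 1.99 FPKM or less.

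AXIN2, a scaffold of the destruction complex, is a gene that beta-catenin switches on in most tissues and is widely used as its readout. It was at 2.68 FPKM, above 31.9% of protein_coding rows. A list of 17 further feedback and target genes had 14 rows, beside 72.2% of RefSeq coding genes with a row. Of the 14, 10 (71.4%) were at 1 FPKM or more, beside 77.5% of protein_coding rows. The highest members of this list were CD44 (560 FPKM), the cell cycle gene CCND1 (272 FPKM) and the AP-1 gene FOSL1 (126 FPKM), which many other signals also control. MYC was at 26.9 FPKM, BIRC5, an inhibitor of cell death, at 22.5 FPKM and the nuclear receptor gene PPARD at 8.81 FPKM. The TCF factor gene TCF7 was at 12.7 FPKM, ZNRF3, which removes frizzleds from the surface, at 2.63 FPKM, and LEF1 at 2.51 FPKM. SP5 was at 0.828 FPKM, NOTUM, which inactivates Wnt proteins, at 0.525 FPKM, and LGR5 was lowest at 0.316 FPKM. The feedback inhibitors NKD1, NKD2 and APCDD1 had no row.

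Genes listed for Wnt secretion and for R-spondins with their receptors were uneven in level. These lists do not hold enhancers alone: NOTUM and ZNRF3, described above as acting against Wnt proteins and frizzleds, stand in them. WLS, which carries Wnt proteins to the cell surface, was at 72.1 FPKM, close to WNT5A. PORCN, the enzyme that attaches the lipid, and TRABD2B had no row. PORCN lies on the X chromosome, where 50.7% of RefSeq coding genes had a row, against 72.2% over all chromosomes. The part of this in the missing row was not tested. Among 9 R-spondin genes and their receptors 3 of 6 listed genes reached 1 FPKM, beside 77.5% of protein_coding rows. LGR4, an R-spondin receptor, was at 44.2 FPKM, ZNRF3 second at 2.63 FPKM and the ligand gene RSPO3 at 1.42 FPKM, while RSPO1, RSPO4 and LGR6 had no row.

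A list of 13 receptors, co-receptors and partner proteins other than frizzleds, LRP5 and LRP6 had 10 rows, beside 72.2% of RefSeq coding genes. Of the 10, 8 (80.0%) were at 1 FPKM or more, beside 77.5% of protein_coding rows. Both shares lay near those of all genes. MCAM, an adhesion protein reported to bind WNT5A, was highest at 24.9 FPKM, RYK, a kinase-like Wnt receptor, was at 13.2 FPKM and PTK7, a planar polarity co-receptor, at 13.1 FPKM. ROR1 was at 1.24 FPKM and ROR2, the best known partner of WNT5A, had no row. KREMEN1, which acts with DKK1 to remove LRP6 from the surface, was at 9.20 FPKM, and its relative KREMEN2 was lowest at 0.133 FPKM. GPC3 and GPC4, both on the X chromosome, had no row, whereas the pathway genes NDP, AMER1 and PRICKLE3 on the same chromosome had a row. Of 8 other ligands and antagonists 4 had a row, with IGFBP4 at 71.5 FPKM, TPBG at 17.4 FPKM, NDP, the Norrin gene, at 2.36 FPKM and SOSTDC1 lowest at 0.140 FPKM. SOST, CER1, DKKL1 and APCDD1 had no row.

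All 12 signal transducers inside the cell had a row, beside 72.2% of RefSeq coding genes, and their median was 19.3 FPKM. Of the 12, 10 (83.3%) were at 1 FPKM or more, beside 77.5% of protein_coding rows. The same 10 reached 10 FPKM, beside 43.8% of protein_coding rows. CTNNB1, which encodes beta-catenin, was highest at 168 FPKM, followed by the casein kinases CSNK1A1 (99.2 FPKM) and CSNK1E (52.0 FPKM), and FRAT1 was lowest at 0.285 FPKM. All 11 genes of the destruction complex and its turnover had a row, and 10 (90.9%) were at 1 FPKM or more, beside 77.5% of protein_coding rows. Besides CSNK1A1, which stands in both lists, GSK3B (30.1 FPKM) and FBXW11 (24.8 FPKM) were highest, APC was at 18.4 FPKM and APC2, the neuronal relative of APC, was lowest at 0.377 FPKM.

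All 15 nuclear factors had a row, beside 72.2% of RefSeq coding genes. Of the 15, 12 (80.0%) were at 1 FPKM or more, near the 77.5% of protein_coding rows. At 10 FPKM or more there were 4 of the 15, beside 43.8% of protein_coding rows. BCL9L, a beta-catenin co-activator, was at 17.6 FPKM, the co-repressor TLE4 at 13.6 FPKM and the acetyltransferase EP300 at 13.5 FPKM. Of the TCF and LEF genes TCF7 was highest (12.7 FPKM), TCF7L2 was at 2.80 FPKM, LEF1 at 2.51 FPKM, and TCF7L1 was lowest of the list at 0.0420 FPKM.

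In the planar cell polarity list 17 of 18 genes had a row, beside 72.2% of RefSeq coding genes. Of the 17, 12 (70.6%) were at 1 FPKM or more, beside 77.5% of protein_coding rows. The GTPase genes RHOA (292 FPKM) and RAC1 (65.8 FPKM), which serve many pathways, and DAAM1 (25.4 FPKM) were highest. VANGL1 was at 9.89 FPKM, whereas VANGL2 was lowest at 0.0225 FPKM, and PRICKLE1 had no row. In the calcium list 15 of 18 genes had a row, beside the same 72.2%, and 12 (80.0%) were at 1 FPKM or more. CAMK2D (83.9 FPKM), NFATC4 (46.3 FPKM) and PRKCA (25.8 FPKM) were highest, PLCB2 was lowest at 0.454 FPKM, and PRKCB, CAMK2B and NFATC1 had no row. Over all 10 lists, 77 of the 99 listed genes (77.8%) were at 1 FPKM or more, close to the 77.5% of protein_coding rows.

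**Figure D4:**
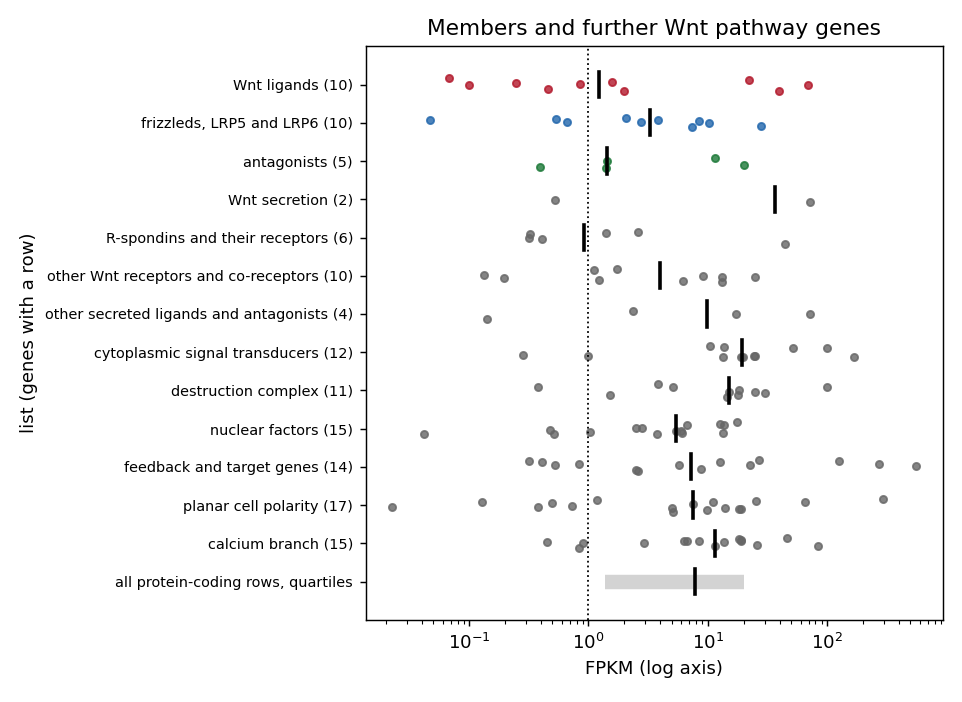
FPKM on a log axis for the ligands, receptors and antagonists in colour and for 10 further lists of pathway genes in grey, with the number of genes that have a row in brackets, the median as a black bar and the quartiles of all protein-coding rows at the bottom. The ligand median is 1.22 FPKM and that of the signal transducers 19.3 FPKM.

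Promoter letters were read for the 28 family genes that have an entry in the RefSeq promoter table, in 31 windows of 250 bases before a start. The ratio of CpG dinucleotides observed to those expected from the C and G content had a median of 0.759 over the 19 windows of genes with a row and 0.765 over the 12 windows of genes without one. Over all 22197 windows of coding genes the median was 0.711. A ratio of 0.6 or more was found in 15 of the 19 windows with a row (78.9%), in 10 of the 12 without (83.3%) and in 60.2% of all coding windows. The windows of genes with and without a row overlapped in this ratio over most of its range, and the lowest ratios were those of WNT8A (0.226) and WNT8B (0.236), which had no row.

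WNT5A and WNT5B differed in the windows printed above. WNT5A had 18 and 14 CpG dinucleotides in its windows, with ratios of 0.759 and 0.803, and WNT5B had 10 and 7, with ratios of 0.533 and 0.455. SFRP2, the highest antagonist, also had a low ratio of 0.531, and so did FRZB, the lowest antagonist with a row, at 0.588. No entry was found for AXIN2, DKK2, DKK3, DKK4, FZD2, FZD3, FZD6, FZD7, FZD10, LRP6, SFRP1, WNT7B, WNT10B and WNT11.

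**Figure D5:**
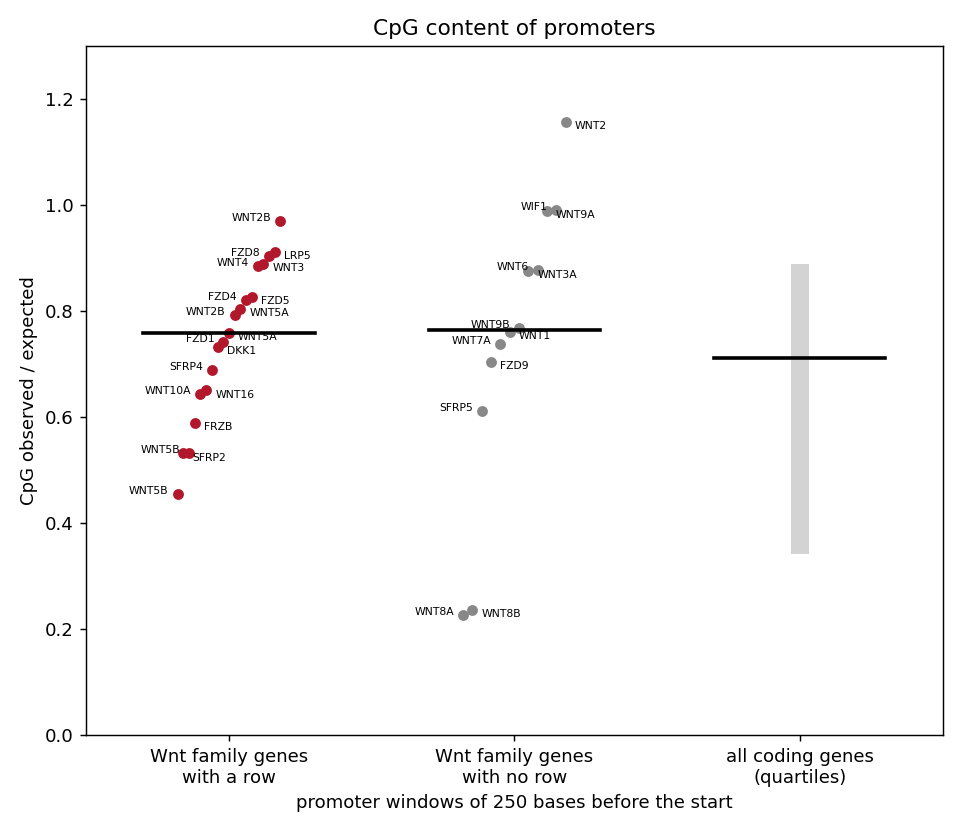
Ratio of observed to expected CpG dinucleotides in promoter windows of 250 bases, each point 1 window, for family genes with a row and family genes with no row, with group medians as black bars, and the quartiles and median of all coding windows at the right. The medians are 0.759, 0.765 and 0.711.

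The TATA motif TATAAA was searched on both strands. So were 4 motifs of the TCF and LEF type: the motif CTTTGAA, the motif CTTTGAT, the motif CTTTGTT and the motif CTTTGTA. The hits in family windows did not overlap each other. TATAAA was in 3 of the 31 family windows (9.68%), those of DKK1, FZD8 and the second of WNT5B, and in 9.01% of all coding windows. In DKK1 it began 30 bases before the start and in FZD8 29 bases before it. In the second WNT5B window the match was on the opposite strand, beginning 78 bases before the start. It is not marked in the sequence above. A TCF and LEF motif was in 1 of the 31 windows (3.23%) and in 9.92% of all coding windows. That window is DKK1, in which CTTTGAA began 95 bases and CTTTGTT 76 bases before the start. CTTTGAA alone was in 3.21% and CTTTGTT alone in 3.72% of all coding windows. A match is a match of letters and was not tested for binding.

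The small RNA library, with 11785001 reads over 1224 listed miRNAs, holds several miRNAs that have been reported to act on members of the family. Their mature sequences as deposited are shown with the seed, bases 2 to 8, in capitals. The seed is the main part, though not the only one, that decides which messages a miRNA pairs with.
miR-29a-3p: tAGCACCAtctgaaatcggtta
miR-29b-3p: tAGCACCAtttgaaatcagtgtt
miR-29c-3p: tAGCACCAtttgaaatcggtta
miR-27a-3p: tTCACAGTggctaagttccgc
miR-27b-3p: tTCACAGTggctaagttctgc
miR-34a-5p: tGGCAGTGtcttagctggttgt
miR-335-5p: tCAAGAGCaataacgaaaaatgt
miR-374a-5p: tTATAATAcaacctgataagtg
The miR-29 miRNAs share 1 seed and the miR-27 miRNAs another.

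The miR-29 family has been reported to target DKK1, SFRP2 and KREMEN2 in human osteoblasts. miR-29a-3p had 82988 reads, 0.704% of the miRNA reads (exact Clopper-Pearson 95% interval 0.699 to 0.709%), miR-29b-3p 4651 reads and miR-29c-3p 135 reads. DKK1 at 11.6 FPKM and SFRP2 at 20.2 FPKM were the 2 highest antagonists, and KREMEN2 was at 0.133 FPKM. miR-335-5p, reported to target Dkk1 in mouse, had 486 reads.

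miR-27a-3p, reported to target SFRP1 in human osteoblasts, had 54687 reads (0.464%, interval 0.460 to 0.468%), miR-27b-3p with the same seed had 125884 reads (1.07%, interval 1.06 to 1.07%), and SFRP1 had no row. miR-34a-5p, reported to target AXIN2 in human cancer cells, had 11289 reads (0.0958%, interval 0.0940 to 0.0976%) beside AXIN2 at 2.68 FPKM. miR-374a-5p, reported to target WNT5A and WIF1 in human breast cancer cells, had 2456 reads (0.0208%, interval 0.02002 to 0.0217%), WNT5A was at 69.8 FPKM, and WIF1 had no row. Since the reads carry no molecular identifiers, these intervals allow for counting error only. Levels in 1 library of each kind do not show whether a miRNA acts on a message.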

How the data were processed

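The mRNA values were deposited by the authors as FPKM per Ensembl gene, per the file headers, and the miRNA values as read counts per mature miRNA, not normalized. The submitters' processing notes name cutadapt and the builds hg19 and GRCh37 without a role. The aligner, FPKM program, annotation, strand setting and handling of shared reads were not given in the sources used here, so reads of overlapping or antisense genes cannot be told apart. Per the labels, RNA was extracted with Trizol; the 2 libraries carry the same small RNA protocol text. Depth was not given for the mRNA library, and FPKM values have no interval. The deposited table also has a length column with no unit, whose values look like protein lengths in residues; it was not used, and the length behind FPKM is not known. The piRNA file was not used.

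Genes were looked up by Ensembl identifier and otherwise by symbol, which 1 of the 117 pathway genes needed. Thresholds of 1 and 10 FPKM and a pseudocount of 1 were applied with Python 3.11.15, pandas 2.3.3 and numpy 2.4.6; intervals came from scipy 1.17.1. The membership rule and the threshold were checked on a small made-up table, where they returned the intended genes. No test between groups was made. Every member was named, and from each pathway list the 3 highest, the lowest and those with no row; a few others were named after their values were seen. The members and lists were chosen with earlier results of these data known. The promoter and miRNA descriptions were added after the gene values were seen. Promoters are from RefSeq on GRCh38.p14, matched by symbol. Alternative settings were other FPKM thresholds and pseudocounts, another scale, missing rows as 0, other ranking pools and members left out.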

Additional observations from a re-analysis of the deposited data

How the results depend on the processing

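The depth of the mRNA library is not given, so levels under 1 FPKM have unknown precision. At 0.1 FPKM 8 ligands passed, at 2 FPKM 3 and at 5 FPKM 3, instead of 5 at 1 FPKM. At 5 FPKM 4 receptors passed instead of 7, and 2 antagonists passed at 2 FPKM and 2 at 5 FPKM instead of 4. The other thresholds, a scale set by the coding rows alone (7 ligands, 9 receptors and 5 antagonists) and leaving out DKK3 (3 antagonists) kept the counts within 1.5 times. The share of all protein_coding rows was taken only at 1 FPKM (77.5%) and 10 FPKM (43.8%). Counts at the other settings therefore describe the members alone and are not set against all rows. With missing rows counted as 0 the median was 0.0676 FPKM for ligands, 2.43 FPKM for receptors and 0.196 FPKM for antagonists, with receptors still highest. The antagonist sum over the ligand sum was 0.222 without the highest member of each group and 0.246 without DKK3, an alternative chosen after seeing the data, instead of 0.257. With a pseudocount of 0.1 the mean log2 value was 1.62 for antagonists and 1.04 for ligands, and with 0.01 it was 1.52 for antagonists and 0.74 for ligands, with receptors between them as with 1. Ranked among all rows in place of protein_coding rows, 25 of the 26 members stood higher, by up to 16.8 percentage points, and LRP5 changed by -0.162 points. No paired analysis was possible because there is 1 mRNA library and the 2 libraries measure different molecules.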
